A study of Mus musculus with 6 samples.

Results

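The tumor necrosis factor (TNF) superfamily was examined in sorted CX3CR1-EGFP+ bone marrow cells, which the authors call osteoclast precursors. The 10 genes examined were 8 encoding ligands (*Tnf*, *Ltb*, *Tnfsf9*, *Tnfsf10*, *Tnfsf12*, *Tnfsf13*, *Tnfsf13b* and *Tnfsf14*) and 2 encoding the TNF receptors (*Tnfrsf1a* and *Tnfrsf1b*). They were taken by gene symbol from the 24346 genes in the expression tables, and all 10 were found. Each of the 6 mice was a CX3CR1-EGFP knock-in, in which the promoter of a chemokine receptor gene drives a green reporter in monocyte-lineage cells, and each received 20 mg/kg lipopolysaccharide (LPS) in the periosteum over the skull, so the vehicle group was also inflamed. For 5 days, 3 mice were given the JAK1-selective inhibitor ABT-317 by mouth at a dose of 60 mg/kg, 2 times per day, and 3 were given vehicle. EGFP+ cells were then sorted from calvarial bone marrow for RNA sequencing (RNA-Seq). Imaged mice were 7 to 20 weeks old, but the age, strain background and zygosity of the sequenced mice are not given in the sources used here, no mice without LPS are among the samples, and the labels do not say whether each library came from a single animal.

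TNF superfamily ligands are mostly trimeric membrane proteins, some of which are cut from the cell surface, and they bind receptors of a matching superfamily. TNF, the product of *Tnf*, is released by macrophages after LPS and acts through TNFR1 (*Tnfrsf1a*), which carries a death domain, and TNFR2 (*Tnfrsf1b*), which does not. In inflamed bone, TNF cooperates with RANKL, another ligand of the family, in driving monocytic precursors toward osteoclasts. These receptors signal to NF-κB and MAP kinases rather than directly through JAK kinases.

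The values are FPKM, in which fragment numbers are divided by transcript length and by library size. They can therefore be compared between genes. Expression of genes that define monocytes was present in every library, with *Csf1r* at 354.9 to 421.9 FPKM, *Ccr2* at 155.9 to 200.1 FPKM and *Cx3cr1* at 15.5 to 36.1 FPKM. Vehicle-treated mouse 3 was the library least like its own group (mean Pearson r of 0.974 over 11301 tested genes, against 0.979 to 0.982 for the other 5 libraries), and results were also computed without each mouse in turn. Markers of other cells were present, and several differed between the groups (lower and higher here mean an unadjusted p under 0.05 in limma). Among all 11301 tested genes, 9.4% were lower and 6.57% were higher by this measure. Groups did not overlap for 12.1% of them in the lower and 9.92% in the higher direction, counted by single gene. Summed FPKM of 8 osteoclast markers was 116.7 to 124.1 with JAK inhibitor and 175.1 to 644.0 with vehicle (6 of 7 tested genes lower, *Calcr* at 0 throughout). That of 10 macrophage markers was 141.6 to 241.2 against 285.8 to 460.6 (5 of 9 tested genes lower), and that of 8 neutrophil precursor markers was 13706 to 14322 against 6620 to 10607 (4 of 8 genes higher and 1 lower). The 8 mature neutrophil markers overlapped, with 6550 to 13373 against 10036 to 20970 (4 of 8 genes lower). B-cell markers summed to 27.9 to 36.3 FPKM in all mice, nearly all of it *Cd79b*, with *Ms4a1*, *Pax5* and *Ebf1* at 0, and the 10 T-cell markers summed to 7.54 to 12.1 FPKM. Of the other marker lists, the sums of natural killer cell genes (496.5 to 577.9 with JAK inhibitor against 212.9 to 383.2) and erythroid genes (6.68 to 52.2 against 0.749 to 3.52; 2 of 5 tested genes higher) did not overlap between the groups. The natural killer cell sum was mostly *Nkg7*, and of the 8 tested genes of that list 3 were lower and 1 was higher, with 6 below 0 and a median of -0.58 on the log2 scale. The sums of monocytes (5727 to 6229 against 4406 to 6274), dendritic cells (58.4 to 69.6 against 48.3 to 80.7), stromal and endothelial cells (32.6 to 43.4 against 16.2 to 35.2), basophils, mast cells and eosinophils (2673 to 4210 against 1850 to 3679) and platelets (9.10 to 24.6 against 24.2 to 57.1) overlapped. Of 10 monocyte genes, of which *Ly6c2* reached 4617 FPKM, 3 were lower and 1 was higher. *Csf1r*, *Ccr2* and *Cx3cr1* were not among these. Of tested genes, 1 of 7 was higher for dendritic cells, 1 of 3 for stromal and endothelial cells and 2 of 8 for basophils, mast cells and eosinophils. For platelets, 1 of 2 was lower. The part of these cell types in the results for the TNF family was not tested. In sorted bulk cells, fewer cells of a type and less RNA per cell cannot be told apart.

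The receptors were expressed well above the ligands. *Tnfrsf1b* had a mean of 127.6 FPKM over the 6 mice and *Tnfrsf1a* of 101.0 FPKM, and together they made up 69.3% to 75.6% of the summed FPKM of the 10 genes. *Tnfrsf1b* lay above *Tnfrsf1a* in 6 of 6 mice, and their ranges did not overlap. *Tnfsf13*, which encodes the B-cell and plasma-cell factor APRIL, was the highest ligand gene at 27.7 FPKM, followed by *Ltb*, the lymphotoxin-β gene, at 25.1 FPKM. These were not separable, since *Tnfsf13* was above *Ltb* in 4 of 6 mice. Next came *Tnf* at 8.65 FPKM, *Tnfsf9* (4-1BB ligand) at 6.81 FPKM, *Tnfsf14* (LIGHT) at 6.58 FPKM and *Tnfsf13b* (BAFF) at 5.52 FPKM, each of which overlapped the next in this order. *Tnfsf12*, the gene of TWEAK, was lower at 2.84 FPKM and overlapped *Tnfsf13b*, and *Tnfsf10*, the gene of the death ligand TRAIL, was lowest at 0.541 FPKM.

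**Figure D1:**
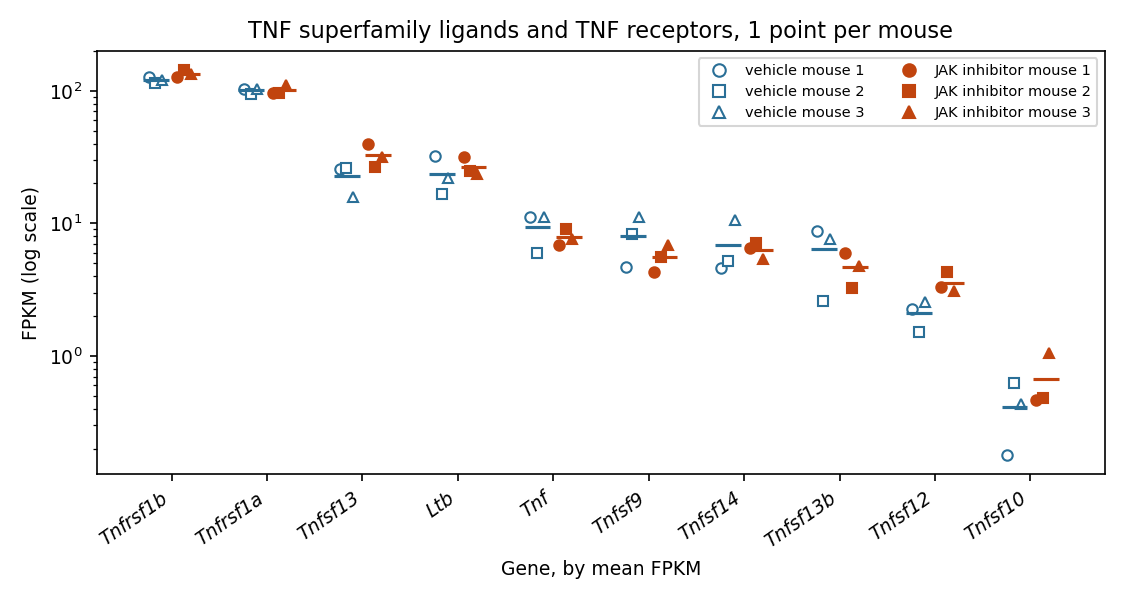
FPKM of the 10 genes on a log axis, ordered by their mean, with 1 point per mouse (open blue, vehicle; filled orange, JAK inhibitor; the symbol shows the mouse number, which does not pair the groups) and short lines at the group means (n = 3). The receptor genes lie near or above 95 FPKM in all mice, and the ligand genes spread from 0.179 to 39.8 FPKM.

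The effect of JAK inhibitor on these genes was examined by comparing the groups on log2(FPKM + 1) with limma, fitted to all 11301 genes that reached 1 FPKM in at least 1 mouse. All 10 genes passed this filter, *Tnfsf10* through only 1 mouse, in the JAK inhibitor group. None of the 10 passed an adjusted p of 0.05, against 0.133% of all tested genes (15 genes), and the count was also 0 in each of the 14 alternative analyses, 2 of which could not test *Tnfsf10*. At an unadjusted p under 0.05 in limma, 2 of the 10 were higher with JAK inhibitor (*Tnfsf12* and *Tnfsf13*) and 0 were lower, against 6.57% higher and 9.4% lower among all tested genes. Groups did not overlap for 3 of the 10, *Tnfsf12*, *Tnfsf13* and *Tnfrsf1b*, each higher with JAK inhibitor, against 9.92% of all genes higher and 12.1% lower without overlap. The exact 2-sided permutation test gave p = 0.1 for each of these 3, the smallest that 3 mice against 3 allow. The median log2 fold change of the 10 was 0.08, and that of all tested genes was -0.0035.

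**Figure D2:**
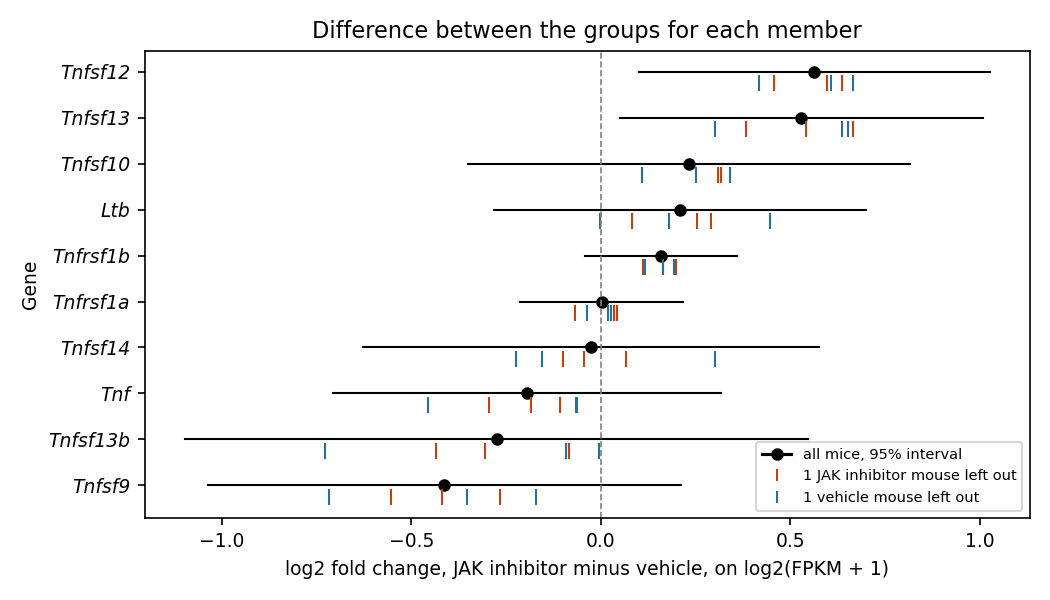
Log2 fold change of each gene, JAK inhibitor minus vehicle, on the log2(FPKM + 1) scale, with its 95% interval in limma (black) and the estimates with 1 mouse left out (ticks; orange, a JAK inhibitor-treated mouse; blue, a vehicle-treated mouse). The intervals of *Tnfsf12* and *Tnfsf13* lie above 0, and the other 8 cross it.

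*Tnfsf12* encodes TWEAK, whose receptor Fn14 is the product of *Tnfrsf12a*. Its FPKM was 2.27, 1.52 and 2.55 in vehicle-treated mice 1 to 3 and 3.34, 4.28 and 3.11 in JAK inhibitor-treated mice 1 to 3. All JAK inhibitor-treated mice were therefore above all vehicle-treated mice. The means were 2.11 ± 0.535 FPKM with vehicle and 3.58 ± 0.618 FPKM with JAK inhibitor (SD, n = 3 each), and limma estimated a log2 fold change of 0.56 (95% interval 0.10 to 1.03, adjusted p = 0.227). Without JAK inhibitor-treated mouse 2 it was 0.46 and without vehicle-treated mouse 2 it was 0.42, and in these cases the unadjusted threshold was not passed.

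*Tnfsf13* lies next to *Tnfsf12*. Its FPKM was 25.8, 26.3 and 15.8 in vehicle-treated mice 1 to 3 and 39.8, 26.6 and 31.8 in JAK inhibitor-treated mice 1 to 3. The groups were parted only narrowly, JAK inhibitor-treated mouse 2 lying just above vehicle-treated mouse 2, and vehicle-treated mouse 3 was lowest. The means were 22.6 ± 5.93 FPKM with vehicle and 32.7 ± 6.65 FPKM with JAK inhibitor (SD, n = 3 each), a difference of 0.53 on the log2 scale (95% interval 0.05 to 1.01, adjusted p = 0.269 in limma). It was 0.30 without vehicle-treated mouse 3, 0.38 without JAK inhibitor-treated mouse 1 and 0.54 without JAK inhibitor-treated mouse 3, none of which passed the unadjusted threshold. With all mice kept, *Tnfsf13* also missed that threshold with no filter and without the trend in limma.

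The 2 genes may not be independent measurements. On the minus strand of chromosome 11 (GENCODE M21 on GRCm38), *Tnfsf12* spans 69686250 to 69695849 and *Tnfsf13* spans 69682846 to 69685784, with 465 bases between them. A read-through gene, *Tnfsfm13*, spans both (69682577 to 69696098) and joins exons of each. It shares 731 of 1515 exonic bases of *Tnfsf12* and 983 of 1637 exonic bases of *Tnfsf13*, while these genes share no exonic base with each other. In the deposited tables *Tnfsfm13* had its own values, 3.68, 2.37 and 2.79 FPKM with vehicle and 2.78, 4.12 and 3.30 FPKM with JAK inhibitor, which overlapped (log2 fold change 0.16, 95% interval -0.30 to 0.62, adjusted p = 0.748 in limma). With *Tnfsf12* and *Tnfsfm13* summed, a comparison added after the values were seen, the groups stayed apart (5.96, 3.88 and 5.34 with vehicle; 6.12, 8.40 and 6.41 with JAK inhibitor), but the log2 fold change was 0.40 and its unadjusted limma value did not pass the threshold (adjusted p = 0.345 in limma). How reads in shared exons were divided is not given in the sources used here.

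**Figure D3:**
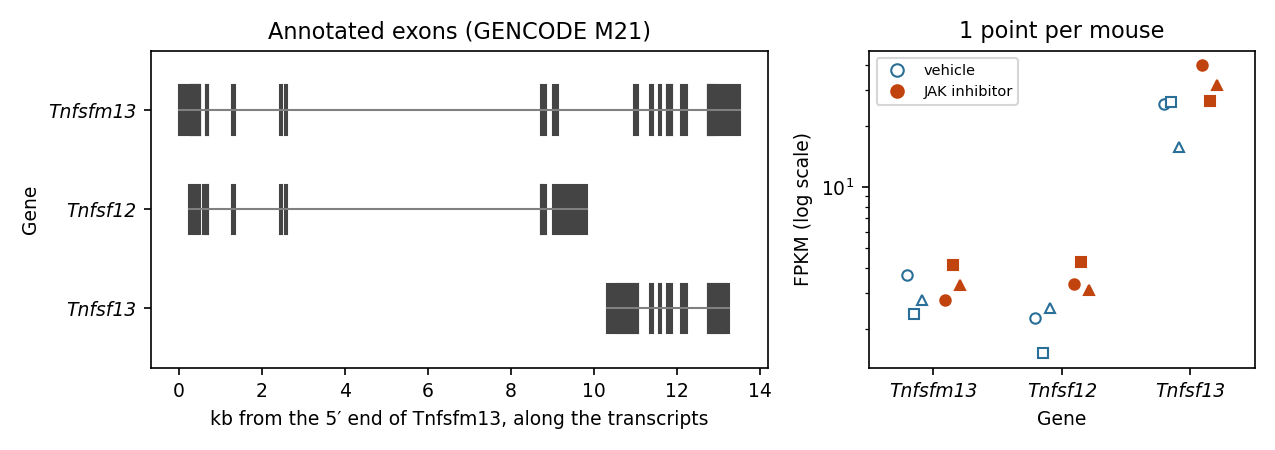
Left, annotated exons of *Tnfsfm13*, *Tnfsf12* and *Tnfsf13* (boxes; lines, introns) in kb along the direction of transcription. Right, FPKM of each gene on a log axis, 1 point per mouse (open blue, vehicle; filled orange, JAK inhibitor; the symbol shows the mouse number). The groups overlap for *Tnfsfm13* and not for *Tnfsf12* or *Tnfsf13*.

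The TNF receptor genes stayed within a narrow range. *Tnfrsf1b* (chromosome 4, 145213463 to 145246870, minus strand) had 126.3, 113.7 and 121.5 FPKM in vehicle-treated mice 1 to 3 and 127.2, 143.4 and 133.4 FPKM in JAK inhibitor-treated mice 1 to 3. The lowest JAK inhibitor value was just above the highest vehicle value. The log2 fold change was 0.16 (95% interval -0.04 to 0.36, adjusted p = 0.425 in limma), and it ranged from 0.11 to 0.20 over the alternatives. *Tnfrsf1a* (chromosome 6, 125349362 to 125362484, plus strand) had 103.0, 95.4 and 104.0 FPKM with vehicle and 95.6, 96.5 and 111.4 FPKM with JAK inhibitor. Its log2 fold change was 0.00287, and the 95% interval of -0.21 to 0.22 leaves room for a change of that size in either direction. The ratio of *Tnfrsf1b* to *Tnfrsf1a*, which does not depend on scaling between libraries, was 1.23, 1.19 and 1.17 with vehicle and 1.33, 1.49 and 1.20 with JAK inhibitor. The groups overlapped, and the difference of the log2 ratio was 0.16 (exact 2-sided permutation test, p = 0.2), or 0.08 without JAK inhibitor-treated mouse 2.

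*Tnf* (chromosome 17, 35199381 to 35202007, minus strand) had 11.1, 6.03 and 11.1 FPKM in vehicle-treated mice 1 to 3 and 6.82, 9.12 and 7.69 FPKM in JAK inhibitor-treated mice 1 to 3. Vehicle-treated mice 1 and 3 were the highest of the 6 and vehicle-treated mouse 2 was the lowest, so the JAK inhibitor group fell inside the range of the vehicle group. The log2 fold change was -0.20 (95% interval -0.71 to 0.32, adjusted p = 0.722 in limma; exact 2-sided permutation test, p = 0.6). Without vehicle-treated mouse 2 it was -0.46, which passed the unadjusted threshold (adjusted p = 0.229 in limma). That mouse also had the lowest value of *Tnfrsf1a*, *Tnfrsf1b*, *Tnfsf12*, *Tnfsf13b* and *Ltb*, thus of 6 of the 10 genes, and the highest of 0.

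*Tnfsf13b* encodes BAFF, a survival factor for B cells made by myeloid cells. It had 8.81, 2.59 and 7.67 FPKM with vehicle and 5.95, 3.27 and 4.81 FPKM with JAK inhibitor. As for *Tnf*, vehicle-treated mice 1 and 3 were highest and mouse 2 lowest. BAFF transcripts differed by -0.28 on the log2 scale (95% interval -1.10 to 0.55, adjusted p = 0.758 in limma), or -0.73 without vehicle-treated mouse 2 (adjusted p = 0.170) and -0.00378 without vehicle-treated mouse 1.

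*Tnfsf9* encodes the ligand of the T-cell costimulatory receptor 4-1BB. It had 4.67, 8.39 and 11.1 FPKM with vehicle and 4.29, 5.54 and 6.88 FPKM with JAK inhibitor. Vehicle-treated mouse 1 lay among the JAK inhibitor-treated mice and the other vehicle-treated mice lay above them. The difference on the log2 scale was -0.41 (95% interval -1.04 to 0.21, adjusted p = 0.510 in limma), and it was -0.72 without vehicle-treated mouse 1 (adjusted p = 0.199).

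*Tnfsf14* encodes LIGHT, which binds HVEM and the lymphotoxin-β receptor. It had 4.64, 5.19 and 10.7 FPKM with vehicle and 6.47, 7.07 and 5.42 FPKM with JAK inhibitor. Vehicle-treated mouse 3 was well above the other 5 mice, which lay between 4.64 and 7.07 FPKM. The log2 fold change was -0.03 (95% interval -0.63 to 0.58), and it was 0.30 without vehicle-treated mouse 3.

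*Ltb* encodes lymphotoxin β, a membrane protein that forms heterotrimers with the product of *Lta*. It had 32.1, 16.8 and 21.9 FPKM with vehicle and 31.8, 24.8 and 23.5 FPKM with JAK inhibitor. The groups overlapped widely, with a log2 fold change of 0.21 (95% interval -0.28 to 0.70, adjusted p = 0.687 in limma), and 0.45 without vehicle-treated mouse 1 (adjusted p = 0.298). Its partner *Lta*, which lies 1157 bases from *Tnf* on the same chromosome, was listed at 0 in 4 of 6 mice and reached 0.321 FPKM at most.

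*Tnfsf10* had 0.179, 0.626 and 0.435 FPKM with vehicle and 0.464, 0.480 and 1.06 FPKM with JAK inhibitor. Only JAK inhibitor-treated mouse 3 reached 1 FPKM, and the groups overlapped (log2 fold change 0.23, 95% interval -0.35 to 0.81). A pseudocount of 0.1 in place of 1 gave 0.60, since the scale compresses changes at this level.

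Promoter sequences (RefSeq, GRCm38.p6) were found for 8 of the 10 genes, and the 250 bases before the start site were searched on both strands for TTCNNNGAA, the GAS motif bound by STAT dimers downstream of JAK kinases, for GAAANNGAA, a motif of interferon regulatory factors, and for the NF-κB motif. Of 32851 promoters in the same table, 7.02% held the first, 7.13% the second and 7.25% the third. The GAS motif was found for *Tnfrsf1a*, *Tnfrsf1b* and *Ltb*, the interferon regulatory motif for *Tnfrsf1b* and 1 of the 2 start sites of *Tnfsf13b*, and the NF-κB motif for *Ltb*, with no 2 of these matches overlapping. The sequences shown are those of *Tnfrsf1b* (chr4:145246871-145247120, minus strand) and *Tnfsf13* (chr11:69685555-69685804, minus strand), whose groups did not overlap, and of *Tnf* (chr17:35202008-35202257, minus strand), each 5′ to 3′ up to the base before the start site. Capitals mark the matches, which in *Tnfrsf1b* are the GAS motif at 181 to 173 bases before the start and the interferon regulatory motif on the opposite strand at 9 to 1 bases. *Tnfsf13* and *Tnf* held no match in this window. The RefSeq start site of *Tnfsf13* lies inside its GENCODE span (69682846 to 69685784), so most of its window is within that span. The window of *Tnfrsf1a* (125349473 to 125349722) lies wholly within its span. Those of *Ltb*, *Tnfsf10* and 1 start site of *Tnfsf13b* reach into theirs.
Tnfrsf1b: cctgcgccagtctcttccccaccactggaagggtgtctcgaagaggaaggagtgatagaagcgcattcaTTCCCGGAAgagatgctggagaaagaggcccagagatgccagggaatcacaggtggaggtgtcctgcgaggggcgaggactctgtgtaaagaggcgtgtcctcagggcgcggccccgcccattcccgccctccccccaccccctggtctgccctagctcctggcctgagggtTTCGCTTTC
Tnfsf13: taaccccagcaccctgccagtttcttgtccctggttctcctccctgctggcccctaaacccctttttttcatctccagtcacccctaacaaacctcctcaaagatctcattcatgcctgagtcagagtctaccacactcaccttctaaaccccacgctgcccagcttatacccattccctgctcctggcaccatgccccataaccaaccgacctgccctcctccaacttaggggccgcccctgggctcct
Tnf: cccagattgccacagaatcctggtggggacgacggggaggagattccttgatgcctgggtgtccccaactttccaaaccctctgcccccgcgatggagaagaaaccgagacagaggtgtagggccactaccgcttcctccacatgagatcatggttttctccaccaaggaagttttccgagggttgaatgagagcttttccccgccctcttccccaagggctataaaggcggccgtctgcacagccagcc

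The ligands outside the 10 genes were nearly silent. Of 10 other TNF superfamily ligand genes, 0 reached 1 FPKM in any mouse, and *Tnfsf11*, the gene of RANKL, was listed at 0 in every mouse, as were *Tnfsf4*, *Cd40lg* and *Cd70*. Of 26 other receptor genes, 14 were tested, of which 2 were lower and 1 was higher at an unadjusted p under 0.05 in limma (14.3% and 7.14%, near the 9.4% and 6.57% of all tested genes; median -0.06 on the log2 scale), and 0 passed the adjusted threshold. *Relt*, a receptor of hematopoietic cells, was 30.6, 28.7 and 32.6 FPKM with vehicle and 19.5, 22.1 and 21.9 FPKM with JAK inhibitor. Its groups were clearly parted, with a log2 fold change of -0.51 (adjusted p = 0.109 in limma). *Fas*, the death receptor, was likewise parted, at 33.8 to 36.4 FPKM with vehicle and 25.4 to 27.5 FPKM with JAK inhibitor, which is -0.39 on the log2 scale (limma, adjusted p = 0.122). *Tnfrsf14*, which encodes the LIGHT receptor HVEM, was 6.97, 7.90 and 2.98 FPKM with vehicle and 9.59, 8.03 and 11.3 FPKM with JAK inhibitor. Its log2 fold change of 0.69 (adjusted p = 0.290 in limma) was 0.33 without vehicle-treated mouse 3 and then missed the unadjusted threshold, as it did without JAK inhibitor-treated mouse 1 (0.68) or 3 (0.58).

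Known receptors of the other ligands, chosen after values were seen, were present to unequal degrees. *Ltbr*, the lymphotoxin-β receptor, was at 29.8 to 44.0 FPKM, *Tnfrsf13b* (TACI, which binds BAFF and APRIL) at 15.6 to 20.9 FPKM and *Tnfrsf12a* (Fn14) at 4.74 to 8.29 FPKM over the 6 mice, with overlapping groups for each. Among other receptor genes, *Tnfrsf9* (for 4-1BB ligand), *Tnfrsf10b* (for TRAIL), *Tnfrsf13c* (for BAFF) and *Tnfrsf17* (for APRIL) stayed below 1 FPKM in every mouse. Not every receptor of these ligands is named here.

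Inside the cell, TNF receptors recruit adaptors, kinases and ubiquitin enzymes. Of 32 tested genes of this kind, 4 were lower and 2 higher at an unadjusted p under 0.05 in limma (12.5% and 6.25%, near the 9.4% and 6.57% of all tested genes; median log2 fold change -0.11). *Tnfaip3*, which encodes the ubiquitin-editing enzyme A20 that limits NF-κB signaling, was 18.1, 14.2 and 21.7 FPKM with vehicle and 7.02, 9.05 and 8.03 FPKM with JAK inhibitor. All vehicle-treated mice were above all JAK inhibitor-treated mice, with a log2 fold change of -1.06 (95% interval -1.45 to -0.67, adjusted p = 0.0665 in limma). *Ikbke*, a kinase gene of the IKK family, was 39.0, 37.0 and 52.6 FPKM with vehicle and 24.4, 25.2 and 24.4 FPKM with JAK inhibitor, which is -0.76 on the log2 scale (limma, adjusted p = 0.0877). With 1 mouse left out, the adjusted p ranged from 0.0257 to 0.228 for *Tnfaip3* and from 0.0349 to 0.270 for *Ikbke*, and it was under 0.05 for both without vehicle-treated mouse 2 or vehicle-treated mouse 3. *Tnip3*, which encodes a partner of A20, and *Birc3*, an inhibitor of apoptosis, had log2 fold changes of -0.54 and -0.41, and *Traf5*, an adaptor gene, of 0.71. Each of these 3 missed the unadjusted threshold without vehicle-treated mouse 3 (-0.37, -0.27 and 0.52). The same held for *Tnip3* without JAK inhibitor-treated mouse 3 (-0.45), for *Birc3* without JAK inhibitor-treated mouse 2 (-0.33) and for *Traf5* without JAK inhibitor-treated mouse 1 (0.59) or 2 (0.59).

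Of 10 tested genes of death signaling, 0 were lower at an unadjusted p under 0.05 in limma, against 9.4% of all tested genes. Their median log2 fold change was 0.13. Of 8 tested genes of TNF shedding and processing, 1 was lower (12.5%, near the 9.4% of all tested genes). It was *Furin*, which encodes a protease that activates precursors. *Furin* had 9.19 to 12.4 FPKM with vehicle and 4.44 to 6.25 FPKM with JAK inhibitor, which is -0.79 on the log2 scale (limma, adjusted p = 0.109). *Adam17*, which encodes the enzyme that releases TNF from the membrane, had 28.5 to 34.8 FPKM over the 6 mice and a log2 fold change of -0.10. Of 14 tested genes that control *Tnf* mRNA, 1 was higher (7.14%, near the 6.57% of all tested genes). It was *Zfp36l2*, which encodes an RNA-binding protein (log2 fold change 0.58, adjusted p = 0.117 in limma). *Zfp36*, which encodes tristetraprolin, the protein that destabilizes *Tnf* mRNA, had 79.5 to 94.9 FPKM and a log2 fold change of -0.07. *Adam17* and *Zfp36* were singled out for their roles after their values were seen.

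The genes that TNF induces in many cells were the list with the largest share of lower genes among the pathway lists. Of 22 tested genes, 10 were lower (45.5%, against 9.4% of all tested genes) and 1 was higher (4.55%, against 6.57%) at an unadjusted p under 0.05 in limma, and 0 passed the adjusted threshold. Their median log2 fold change was -0.42. Of the 10 lower genes, *Cxcl2* passed the filter only through vehicle-treated mice (1.36, 0.800 and 1.33 FPKM, against 0.186 to 0.218 FPKM with JAK inhibitor). With 1 FPKM in 3 mice, which left *Cxcl2* out, 9 of 21 tested genes were lower. With no filter, 8 of 24 were lower. The genes of this list also respond to LPS and other NF-κB stimuli. The list shares *Mmp9* with the osteoclast markers and *Vcam1* with the macrophage markers, and the sums of both marker lists were lower with JAK inhibitor. *Mmp9* had a log2 fold change of -1.32, whereas *Vcam1* was at 0.46, opposite to the macrophage sum. The groups overlapped for both genes. *Nfkbia*, which encodes the NF-κB inhibitor IκBα, was 282.1, 321.8 and 467.0 FPKM with vehicle and 178.6, 163.1 and 176.7 FPKM with JAK inhibitor. The groups were far apart, with a log2 fold change of -1.01 (95% interval -1.39 to -0.64, adjusted p = 0.0688 in limma). *Sod2*, the gene of mitochondrial superoxide dismutase, was 69.8, 49.1 and 96.1 FPKM with vehicle and 30.5, 30.0 and 32.6 FPKM with JAK inhibitor, which is -1.13 on the log2 scale (limma, adjusted p = 0.0877). With 1 mouse left out, adjusted p ranged from 0.00876 to 0.250 for *Nfkbia*, under 0.05 without any 1 of the vehicle-treated mice, and from 0.0149 to 0.272 for *Sod2*, under 0.05 without vehicle-treated mouse 2 or 3. *Ier3*, an immediate early gene, had a log2 fold change of -1.19 and *Icam1*, which encodes an adhesion molecule, of -0.96. *Bcl2a1d*, an anti-apoptotic gene, went the other way at 1.11. It belongs to a group of near-identical copies. How reads were divided among them was not tested, and its value is uncertain. Its other listed copy *Bcl2a1a*, looked at after the values were seen, was also above 0 (0.43, 95% interval -0.03 to 0.88 in limma), with overlapping groups. Without vehicle-treated mouse 3, 9 of 22 were lower and 2 higher with a median of -0.32, and the fewest lower genes were 6 without JAK inhibitor-treated mouse 3.

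**Figure D4:**
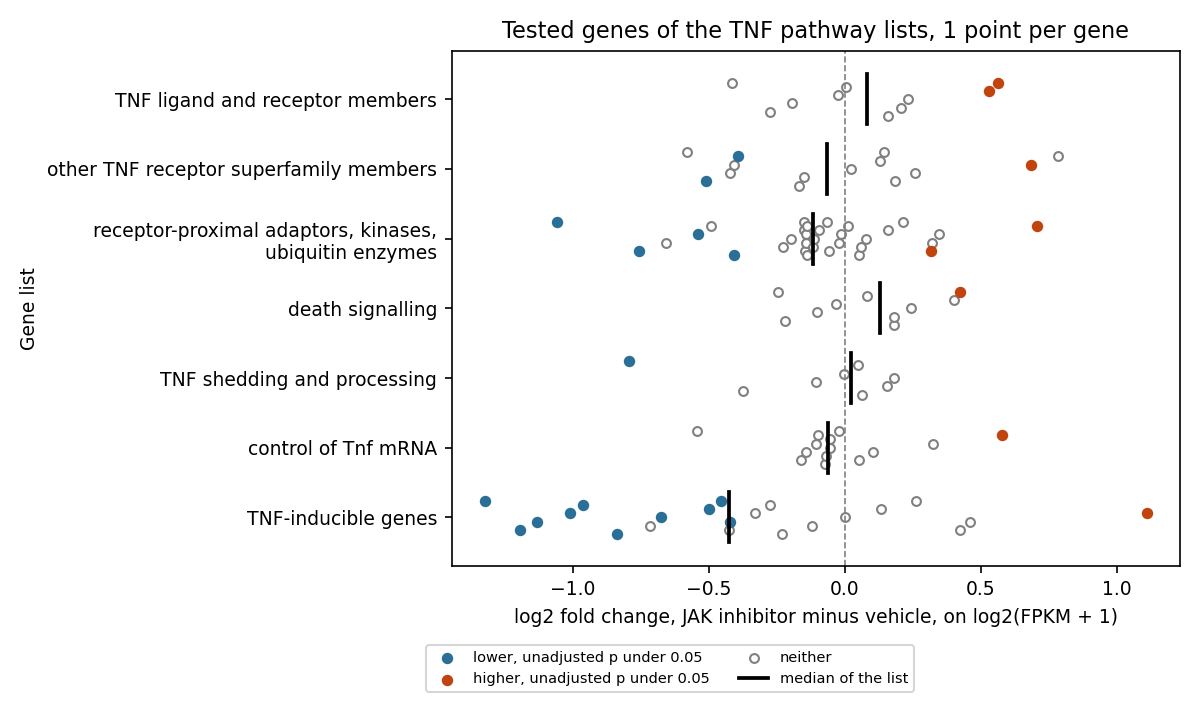
Log2 fold change, JAK inhibitor minus vehicle on log2(FPKM + 1), of each tested gene in the pathway lists (1 point per gene; blue, lower and orange, higher at an unadjusted p under 0.05 in limma; open grey, neither), with the median of each list as a black bar. The 10 ligand and receptor genes center near 0, and the median of the TNF-inducible genes is -0.42.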

How the data were processed

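Sorted CX3CR1-EGFP+ cells of 3 JAK inhibitor-treated and 3 vehicle-treated mice were profiled by RNA-Seq. Each mouse has a table of FPKM, as the authors deposited it, with 24346 symbols, of which 95.7% were found among the reference gene names. The submitters' processing notes name TopHat2 2.0.13, Bowtie2 2.2.3, SAMtools 0.1.19, Cufflinks 2.2.1 and mm10, which is GRCm38; the annotation and any scaling between libraries are not given in the sources used here. The library kit is a SMART-Seq HT kit with Nextera in the labels and a TruSeq Stranded mRNA kit in the methods, so strandedness is unsure. FPKM summed to 688372 to 775790 per mouse. Read steps in low values were too weak to recover reads (at most 28 genes per bin of 0.01 on the log2 scale in any pair of libraries), so depth is unknown and no counting intervals are given.

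The 11301 genes that reached 1 FPKM in any mouse were compared on log2(FPKM + 1), JAK inhibitor minus vehicle, using limma (version 3.58.1, R 4.3.3) with trended empirical Bayes moderation, and p-values were adjusted by Benjamini-Hochberg over all tested genes. This scale understates the change of low genes. For single genes, an exact permutation test (2-sided) was added. The limma p-values set the group difference against the spread between these samples, and the permutation p-values set it against the differences from all regroupings of the mice. The 10 genes, the 7 pathway lists and the 13 marker lists were chosen with earlier results of these data known. The lists were written by hand, and 2 marker genes were not found. Named genes are the 10, up to 5 per pathway list with the smallest unadjusted p under 0.05, and the 5 most like *Tnf*; others are marked. Alternatives were a pseudocount of 0.1, no filter, 1 FPKM in 3 mice, quantile normalization, median ratio scaling, no trend, library weights, a block for the replicate number, and leaving out each mouse. Tables and figures were made with SciPy 1.17.1, NumPy 2.4.6, pandas 2.3.3 and matplotlib 3.10.9 in Python 3.11.15. Count models were not applied to FPKM. A single-gene result of the death signaling list is not reported here.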

Additional observations from a re-analysis of the deposited data

How the results depend on the processing

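Of the 10 genes, 0 passed an adjusted p of 0.05 under any alternative; the smallest adjusted p was 0.170, for *Tnfsf13b* without vehicle-treated mouse 2. The number higher at an unadjusted p under 0.05 was 1 with no filter and without the trend, and 1 to 3 with 1 mouse left out; the number lower was 0 to 2 with 1 mouse left out. Genes past the adjusted threshold among all tested numbered 2 with no filter, 34 with 1 FPKM in 3 mice, 2 without the trend, 63 with library weights and 3 to 95 with 1 mouse left out. With the replicate number as a block, 1 of the 10 genes was lower (*Tnfsf9*), 2 were higher, and 67 of all genes passed the adjusted threshold; deviations of same-numbered mice correlated at 0.016, 0.054 and 0, and not every mouse correlated best with its own number, so the numbers were not taken as pairs. Directions turned for *Tnfsf14* with library weights (0.14) and with 1 mouse left out (-0.22 to 0.30), and, with 1 mouse left out, for *Tnfrsf1a* (-0.0677 to 0.0412) and *Ltb* (-0.00179 to 0.446). The median of the 10 genes ranged from -0.02 to 0.17 with 1 mouse left out. The difference of the log2 receptor ratio stayed above 0 with a pseudocount of 1 (0.16) and with 1 mouse left out (0.08 to 0.23). Of the TNF-inducible genes, the number past the adjusted threshold was 1 with 1 FPKM in 3 mice, 2 with library weights, 2 with the replicate block (*Nfkbia*, adjusted p = 0.0397, and *Sod2*, adjusted p = 0.0436, in limma) and 0 to 3 with 1 mouse left out; of the adaptor genes it was 1 with 1 FPKM in 3 mice, 2 with library weights and 0 to 2 with 1 mouse left out. The unknown depth limits what can be said of *Tnfsf10*, which stayed under 1 FPKM in 5 of 6 mice and was not tested with 1 FPKM in 3 mice or without JAK inhibitor-treated mouse 3. The cause of these changes was not tested.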

Other observations

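The genes whose values followed *Tnf* most closely over the 6 mice, among 7740 tested genes with a mean of at least 5 FPKM, were *Chmp7* (Pearson r = 0.971), *Adipor1* (0.967), *Gtf2a2* (0.965), *Rassf2* (0.960) and *Bcl2l1* (0.959) on the log2(FPKM + 1) scale. A total of 33 genes had an r above 0.9. All genes of a mouse share its library and scaling, and these values over 6 mice only describe these libraries. Each of the 5 had its highest values in vehicle-treated mice 1 and 3, as *Tnf* did, which follows from how they were chosen.

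APRIL and BAFF, the products of *Tnfsf13* and *Tnfsf13b*, share the receptor TACI, and the ratio of their genes was compared after the values were seen. It was 2.92, 10.2 and 2.06 in vehicle-treated mice 1 to 3 and 6.69, 8.13 and 6.61 in JAK inhibitor-treated mice 1 to 3. Vehicle-treated mouse 2 had the highest ratio and the other vehicle-treated mice the lowest, so the groups overlapped (difference of the log2 ratio 0.85, exact 2-sided permutation test, p = 0.4).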
